A study of Mus musculus with 11 samples.

Results

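The genes studied here control where and how fast bone mineral forms, and were followed in the distal tibia of mice with or without ablation of bone marrow adipocytes (BMAds). These genes were chosen by symbol, with earlier results of these data known, from the 22600 genes of the merged count table. All 10 members were found there and passed the filter on low counts. They are Alpl, Phospho1, Smpd3, Enpp1, Slc20a1, Slc20a2, Phex, Fam20c, Bglap and Bglap2. RNA of the whole distal tibial bone, marrow included, of C57BL6/SJL mice aged 24 weeks and fed ad libitum was sequenced, 4 of them Control and 7 BMAd-DTA, 1 library each. Every mouse carried Osterix-FLPo and FAC, an Adipoq-Cre that FLPo activates, so that Cre acts where Osterix and Adipoq expression overlap. BMAd-DTA mice carried in addition ROSA-DTA, a diphtheria toxin A gene behind a loxP-flanked STOP cassette, and the labels name the control genotype BMAd-WT. By the study's account this Cre becomes more efficient with age and reaches a small subset of the Adipoq-expressing stromal precursors in marrow. The labels give no sex, and the study's figure legend for the RNA-seq names male mice, which the Xist values given with Phex go against.

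Bone mineral forms when phosphate and calcium precipitate first inside vesicles shed by osteoblasts and then along collagen. Tissue-nonspecific alkaline phosphatase, the product of Alpl, destroys pyrophosphate, the main local inhibitor of mineral, and frees phosphate. Enpp1 makes that pyrophosphate from ATP outside the cell. Phospho1 and Smpd3 act together on vesicle phospholipid, Smpd3 releasing phosphocholine from sphingomyelin and Phospho1 releasing phosphate from phosphocholine. Slc20a1 and Slc20a2 encode the sodium-phosphate cotransporters Pit-1 and Pit-2. Phex is a membrane peptidase of osteoblasts and osteocytes whose loss causes X-linked hypophosphatemia, and Fam20c is the kinase that phosphorylates secreted matrix proteins. Osteocalcin, an abundant non-collagen protein of mature osteoblasts, is encoded in the mouse by the neighbouring genes Bglap and Bglap2.

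The sequences of the osteocalcin pair are shown because they decide how well the pair can be told apart by reads of 100 bases. On GRCm38, Bglap lies at chr3:88383501-88384464 and Bglap2 at chr3:88377736-88378699, both on the minus strand. Their coding sequences, from the start codon to the last codon before the stop, are given 5′ to 3′ with the bases that differ in capitals.

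Bglap: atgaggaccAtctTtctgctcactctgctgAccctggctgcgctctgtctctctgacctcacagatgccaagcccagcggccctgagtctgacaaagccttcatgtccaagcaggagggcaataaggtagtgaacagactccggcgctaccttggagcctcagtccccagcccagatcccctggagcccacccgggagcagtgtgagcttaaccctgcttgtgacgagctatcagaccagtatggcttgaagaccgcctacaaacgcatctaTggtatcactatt

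Bglap2: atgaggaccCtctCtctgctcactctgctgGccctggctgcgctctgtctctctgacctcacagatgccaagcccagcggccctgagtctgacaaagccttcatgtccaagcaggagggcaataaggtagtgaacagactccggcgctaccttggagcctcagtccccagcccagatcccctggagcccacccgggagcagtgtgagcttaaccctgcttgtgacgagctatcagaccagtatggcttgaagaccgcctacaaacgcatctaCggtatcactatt

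The 285 coding bases were 98.6% identical. Counted from 1 at the A of the start codon, with the Bglap base first, the 4 differences were A10C, T14C, A31G and T273C, and 3 of the 95 codons encoded another residue. The longest identical run was 241 bases, and 56.3% of all 100-base windows of the Bglap transcript also occurred in Bglap2. A read pair within such a stretch maps to both genes and is absent from the counts of either. The third gene of the cluster, Bglap3, shared no 100-base window with Bglap and was counted 3 to 15 times per library.

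Of the 10 members, 7 had a start site in the RefSeq promoter table (build GRCm38.p6), with 9 starts in all. The 250 bases before the start of Bglap, Enpp1 and Alpl are shown because these genes stand for the different responses described below. Capitals mark ACCACA, letters that RUNX factors can bind, and the TATA box letters TATAAA, each searched on both strands.

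Bglap, minus strand, chr3:88384467-88384716: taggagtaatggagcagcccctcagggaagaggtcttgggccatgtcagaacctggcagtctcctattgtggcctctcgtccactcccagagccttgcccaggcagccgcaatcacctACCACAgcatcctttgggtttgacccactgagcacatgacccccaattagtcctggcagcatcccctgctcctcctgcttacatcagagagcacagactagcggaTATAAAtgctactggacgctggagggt

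Enpp1, minus strand, chr10:24712160-24712409: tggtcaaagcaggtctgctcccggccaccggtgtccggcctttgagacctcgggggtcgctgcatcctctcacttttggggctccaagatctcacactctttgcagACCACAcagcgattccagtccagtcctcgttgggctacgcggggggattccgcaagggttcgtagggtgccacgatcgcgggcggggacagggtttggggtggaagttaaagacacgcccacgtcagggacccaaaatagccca

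Alpl, minus strand, first start, chr4:137796385-137796634: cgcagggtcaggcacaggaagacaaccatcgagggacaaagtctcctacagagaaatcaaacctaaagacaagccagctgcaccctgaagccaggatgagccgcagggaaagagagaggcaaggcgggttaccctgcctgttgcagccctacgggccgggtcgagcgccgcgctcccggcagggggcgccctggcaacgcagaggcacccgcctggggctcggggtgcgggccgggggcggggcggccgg

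ACCACA began 132 bases before the Bglap start and 144 bases before the Enpp1 start, and it was found on the opposite strand of Slc20a1. These 3 members held it among the 7, at 3 of their 9 starts, while 14.05% of 32851 promoters of that length, counted by start, held it. The second start of Slc20a1 lacked it. TATAAA was found in Bglap and before the second start of Alpl, and in 12.37% of all promoters. The match is a description of letters, and genes with and without it are found below among those with higher and with similar values in BMAd-DTA mice.

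The libraries held 16969529 to 18637663 counted read pairs. The summed level of 10 osteoblast and osteocyte markers, all detected in every library, was 3310 to 13314 CPM (normalised read counts, each count over its library's scaled size) in Control and 16171 to 36189 CPM in BMAd-DTA, without overlap. Control 1 stood apart with 3310 CPM, against 11295 to 13314 CPM in the other 3 controls. Most of this sum was Col1a1 and Col1a2, with means of 4720 and 3869 CPM in Control and 12016 and 9255 CPM in BMAd-DTA. Among the other markers, all 7 BMAd-DTA libraries exceeded every control for Sp7 and Sost. The number was 6 for Runx2 and Mepe, 4 for Ibsp and Pdpn and 3 for Dmp1 and Spp1. The summed chondrocyte markers (14 genes) were also separated, at 795 to 1316 CPM in Control and 1483 to 1692 CPM in BMAd-DTA. Most of that rise lay in Col2a1, with means of 217 and 468 CPM, and Col11a2, with means of 177 and 388 CPM. All 12 tested genes had positive log2 fold changes, but those of Acan, Col10a1, Comp, Hapln1 and Sox9 were 0.067 to 0.19. An unadjusted p under 0.05 in edgeR was found for 3 of the 12. Adipocyte markers (10 genes) summed to 700.1 to 1474 CPM in Control and 256 to 916 CPM in BMAd-DTA. Neutrophil markers (12 genes) were at 25669 to 29564 CPM and 21024 to 30646 CPM. Skeletal muscle markers (15 genes) ranged from 24.4 to 1573 CPM in Control and from 26.6 to 1186 CPM in BMAd-DTA, and Myh1 and Mb were at 0 in a BMAd-DTA library. Of the other lists, Matn1, Matn3, Kera and Adrb3 were at 0 in at least 1 library. Osteoclast markers (8 genes) summed to 1335 to 2881 CPM in Control and 1808 to 4665 CPM in BMAd-DTA, with overlap. All 8 had a positive log2 fold change, with a median of 1.04 against 0.78 for the osteoblast list. An unadjusted p under 0.05 in edgeR was found for 5 of the 8, 9 of the 10 osteoblast markers and 16.4% of all genes. No gene of either list had an adjusted p under 0.05 in edgeR. DESeq2, at that threshold, called 1 osteoclast marker, 6 osteoblast markers and 5.42% of all genes with an adjusted p. Tendon (7 genes), B lymphocyte (10 genes) and erythroid (8 genes) marker sums overlapped between the groups. In such bulk samples a change in the number of osteoblasts and a change in RNA per osteoblast cannot be told apart, and the part that these marker levels have in the results below was not tested.

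Among the members, Alpl was the gene that rose past the threshold in BMAd-DTA bone. Smpd3, Phex, Bglap and Bglap2 had means 1.63 to 2.43 times those of Control without passing it, and Enpp1, Slc20a1 and Slc20a2 stayed between 0.875 and 1.04 times Control. In edgeR, by the quasi-likelihood test and with p-values adjusted by Benjamini-Hochberg over 16496 genes, 1 of the 10 members had an adjusted p under 0.05, where 0.0788% of all genes did so in either direction and 0.0727% with higher values in BMAd-DTA. DESeq2 with its default settings placed 4 of the 10 members past the same threshold, namely Alpl, Phex, Smpd3 and Bglap2, where it called 5.42% of all genes with an adjusted p. An unadjusted p under 0.05 in edgeR was found for 8 members, 7 higher and 1 lower in BMAd-DTA, and for 16.4% of all genes. The median log2 fold change was 0.72 over the members and 0.0018 over all genes. In 2 members, Alpl and Smpd3, every BMAd-DTA library lay above every Control library, a separation that 1.78% of all genes showed. As the members were chosen with earlier results known, these shares and medians describe them and are no test of the group.

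**Figure D1:**
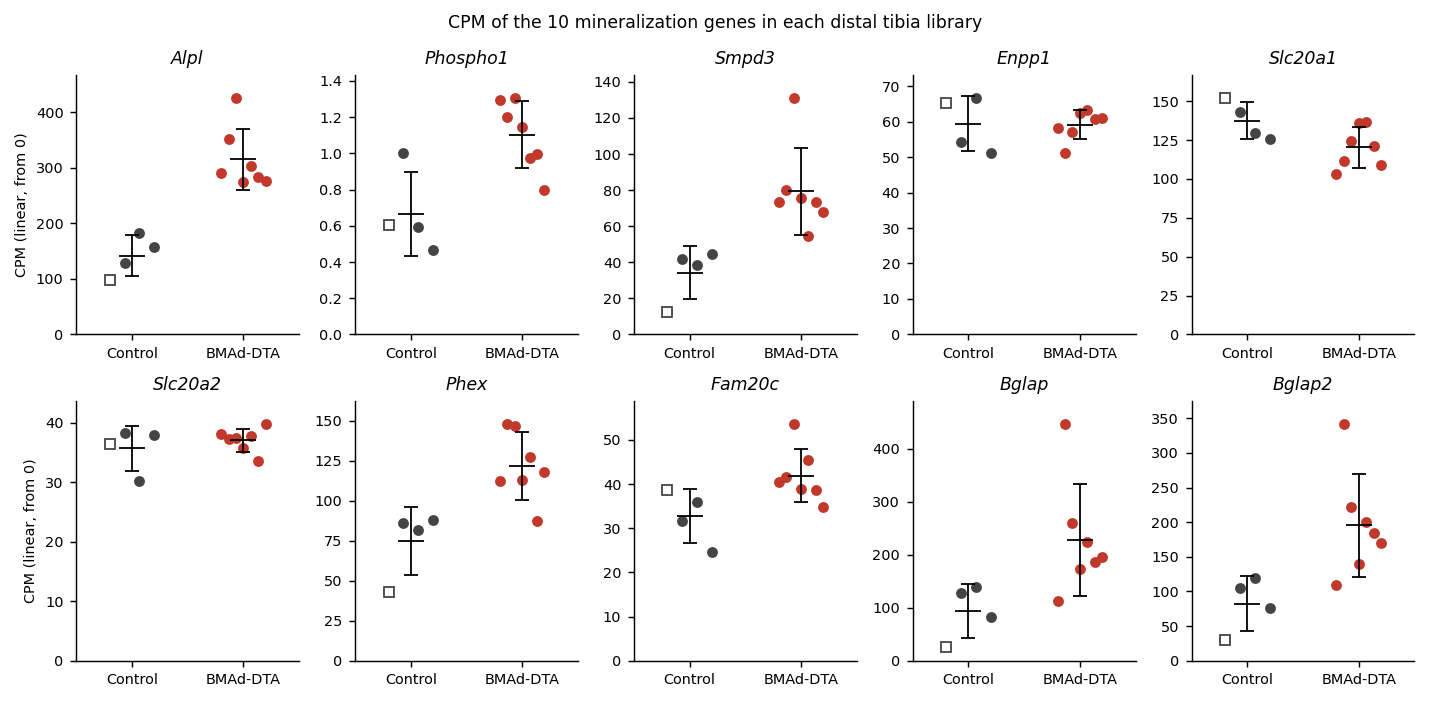
Level of each member in each library, in CPM on linear axes that start at 0. Grey marks are the 4 Control libraries, the open square being Control 1, red marks are the 7 BMAd-DTA libraries, and bars give the mean and SD. Alpl and Smpd3 do not overlap between the groups, while Enpp1, Slc20a1 and Slc20a2 do.

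Alpl, at chr4:137741733-137796384 on the minus strand, measured 97.2, 128, 183 and 157 CPM in the 4 Control libraries. In BMAd-DTA it measured 275 CPM at the lowest, 290 CPM at the median and 425 CPM at the highest. The lowest BMAd-DTA library was therefore above the highest control, and the high value belonged to BMAd-DTA 3, which also had the highest osteoblast marker sum. The means were 141 ± 37.0 CPM (SD, n = 4) and 315 ± 55.2 CPM (SD, n = 7), a log2 fold change of 1.16 ± 0.17 (SE) with an edgeR adjusted p of 0.0326. The exact two-sided permutation test over all 330 assignments gave p = 0.00303, the smallest it can give. By the same test, unadjusted, p was also 0.00303 for Smpd3 and 0.00606 to 0.0242 for Phex, Bglap2, Bglap, Phospho1 and Fam20c. It was 0.0727 for Slc20a1, 0.461 for Slc20a2 and higher still for Enpp1. The log2 fold change of Alpl lay between 1.01 and 1.31 when single mice were left out. The edgeR adjusted p was over 0.05 in 5 of these 11 fits, at 0.0889 without Control 1, 0.129 without Control 2, 0.056 without BMAd-DTA 1, 0.0547 without BMAd-DTA 4 and 0.0556 without BMAd-DTA 6. With the skeletal muscle marker score as a covariate the log2 fold change was 1.08 and the edgeR adjusted p was 0.0674.

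Smpd3, at chr8:106252548-106337988, encodes neutral sphingomyelinase 2, and its loss in mice leaves bone poorly mineralized. It measured 12.3, 41.9, 38.2 and 44.6 CPM in Control and 54.6, 73.4 and 131 CPM at the lowest, median and highest BMAd-DTA library. The groups did not overlap, but Control 1 was far below the other controls and BMAd-DTA 3 far above its group. The log2 fold change was 1.21 ± 0.31 (SE), with an adjusted p of 0.0881 in edgeR and 0.0182 in DESeq2. Without Control 1 the log2 fold change was 0.93 and the edgeR adjusted p was 0.22.

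Phospho1, the vesicle phosphatase, gave very few counts, 9 to 17 per library in Control and 15 to 23 in BMAd-DTA. The levels were 0.606, 1.001, 0.591 and 0.467 CPM in Control and 0.799, 1.15 and 1.30 CPM at the lowest, median and highest BMAd-DTA library, and the groups overlapped. The log2 fold change of 0.73 ± 0.28 (SE) had an edgeR adjusted p of 0.209. The gene lies at chr11:95824499-95832140 on the plus strand, and in GENCODE M21 exons 2 and 3 lie entirely within exons of a transcript of Zfp652 on the same strand. Of its 2029 exon bases 211 (10.4%) were free of that overlap, all in exon 1, and pairs in the shared bases are ambiguous and enter neither gene's count. Zfp652 itself measured 87.3 ± 8.75 CPM (SD, n = 4) in Control and 87.9 ± 8.54 CPM (SD, n = 7) in BMAd-DTA. The counts of Phospho1 thus stand for a small part of the gene, and its level cannot be set beside those of the other members. The annotation release behind the deposited counts is not given in the sources used here.

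**Figure D2:**
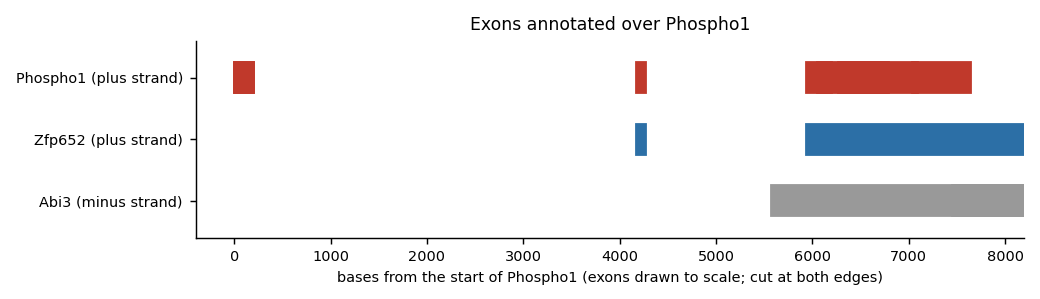
Exons of Phospho1, Zfp652 and Abi3 drawn to scale by distance in bases from the start of Phospho1, from all annotated transcripts. Only Phospho1 exon 1, the block at the left, has no Zfp652 exon on its strand.

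Enpp1, the producer of pyrophosphate, lies at chr10:24637914-24712159 and measured 65.3, 54.3, 66.6 and 51.2 CPM in Control. The lowest, median and highest BMAd-DTA libraries measured 51.1, 60.8 and 63.2 CPM, within or just below the Control range. The log2 fold change was -0.0059 ± 0.085 (SE) with an edgeR adjusted p of 0.982, and its sign changed with the scaling and with the mouse left out. Because Alpl and Enpp1 act on pyrophosphate in opposite directions, their ratio was compared within each library, where scaling has no effect. The log2 ratio of Alpl to Enpp1 counts was 1.22 ± 0.46 (SD, n = 4) in Control and 2.40 ± 0.31 (SD, n = 7) in BMAd-DTA. Every BMAd-DTA library, at 2.14 or more, was above every Control library, at 1.62 or less. The difference of 1.18 ± 0.26 (SE) had an exact permutation p of 0.00303, adjusted to 0.0152 over the 15 ratios compared. As Enpp1 hardly changed, this difference restates that of Alpl, whose own log2 fold change was 1.16, and is not a second result. Without Control 1 the difference was 0.96 and every BMAd-DTA library was still above every control. The exact permutation p was then 0.00833, the smallest that 3 controls against 7 allow, and its adjusted value was 0.125, the lowest that a single ratio at that p can reach among 15.

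Neither phosphate cotransporter passed the test. Slc20a1, at chr2:129198764-129211616, measured 152, 143, 129 and 126 CPM in Control and 103, 121 and 137 CPM at the lowest, median and highest BMAd-DTA library. It was the member with an unadjusted p under 0.05 in the lower direction, at a log2 fold change of -0.19 ± 0.087 (SE), and its edgeR adjusted p was 0.29. In BMAd-DTA, 5 of 7 libraries were below every control. Slc20a2, at chr8:22476788-22569612, measured 36.5, 38.3, 30.2 and 38.1 CPM in Control and 33.6, 37.4 and 39.8 CPM at the lowest, median and highest BMAd-DTA library. The groups overlapped nearly completely, with a log2 fold change of 0.053 ± 0.077 (SE) and an edgeR adjusted p of 0.789. The log2 ratio of Slc20a1 to Slc20a2 was 1.95 ± 0.17 (SD, n = 4) and 1.69 ± 0.20 (SD, n = 7), with an exact permutation p of 0.0667 and an adjusted p of 0.143.

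Phex, at chrX:157162075-157415312, measured 43.0, 86.4, 81.6 and 88.3 CPM in Control and 87.2, 118 and 148 CPM at the lowest, median and highest BMAd-DTA library. Control 1 was low, and 6 of 7 BMAd-DTA libraries exceeded all controls. The log2 fold change of 0.70 ± 0.19 (SE) had an adjusted p of 0.0992 in edgeR and 0.00661 in DESeq2. Without Control 1 it was 0.51, with an edgeR adjusted p of 0.234. As Phex is X-linked, Xist, the RNA that coats the inactive X chromosome, was read in the same libraries, and it measured 897 to 1058 CPM in Control and 789 to 1080 CPM in BMAd-DTA. Xist was thus present in every library of both groups, which goes against the male sex named by the study, and the reason was not tested.

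Fam20c, at chr5:138754514-138810077, measured 38.6, 31.6, 36.0 and 24.6 CPM in Control and 34.8, 40.4 and 53.5 CPM at the lowest, median and highest BMAd-DTA library. Control 1 was the highest control here, opposite to its place for Phex, Smpd3 and Alpl. The log2 fold change was 0.36 ± 0.13 (SE), with an adjusted p of 0.195 in edgeR and 0.109 in DESeq2. The log2 ratio of Phex to Fam20c overlapped between the groups, with an exact permutation p of 0.242 and an adjusted p of 0.364.

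Bglap measured 25.2, 128, 139 and 83.5 CPM in Control and 113, 195 and 446 CPM at the lowest, median and highest BMAd-DTA library. Bglap2 measured 29.6, 106, 119 and 75.6 CPM in Control and 109, 185 and 341 CPM at the lowest, median and highest BMAd-DTA library. For both genes Control 1 was the lowest library, BMAd-DTA 2 the highest, and 6 of 7 BMAd-DTA libraries were above every control. Bglap had a log2 fold change of 1.28 ± 0.42 (SE), with an adjusted p of 0.151 in edgeR and 0.0674 in DESeq2. Bglap2 had a log2 fold change of 1.24 ± 0.35 (SE), with an adjusted p of 0.113 in edgeR and 0.0295 in DESeq2. The coefficient of variation of Bglap, 55.0% in Control and 46.4% in BMAd-DTA, was the highest of the 10 members in both groups. Without Control 1 the log2 fold change was 0.97 for Bglap and 0.96 for Bglap2, with edgeR adjusted p of 0.36 and 0.281.

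The osteocalcin genes moved as a pair. Bglap gave 46.0% to 56.7% of the summed counts of both in each library. Their log2 ratio was 0.10 ± 0.23 (SD, n = 4) in Control and 0.19 ± 0.13 (SD, n = 7) in BMAd-DTA, a difference of 0.091 ± 0.12 (SE) with an exact permutation p of 0.43 and an adjusted p of 0.497. With the counts of Bglap, Bglap2 and Bglap3 added together, the log2 fold change was 1.26 ± 0.39 (SE) and the edgeR adjusted p was 0.133.

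**Figure D3:**
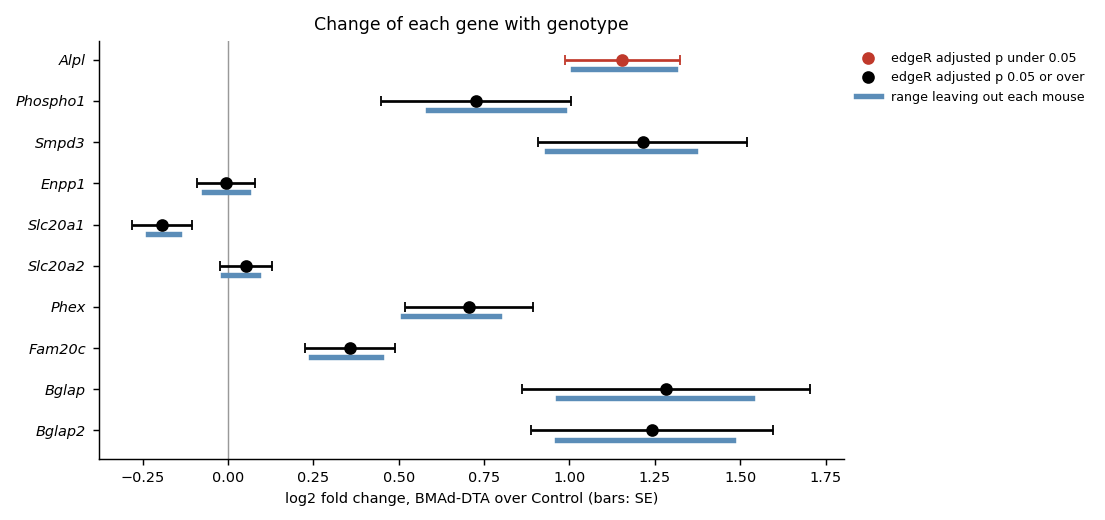
Log2 fold change of each member, BMAd-DTA over Control, from edgeR, with its SE (thin bars) and the range when each mouse is left out in turn (blue bars). Alpl, in red, is the member with an adjusted p under 0.05, and the ranges of Enpp1 and Slc20a2 cross 0.

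Levels were compared between genes per kilobase of the longest coding transcript. In Control the order was Bglap at 213 ± 117 CPM per kb, Bglap2 at 175 ± 84.5, Alpl at 56.1 ± 14.7, Slc20a1 at 41.5 ± 3.66, Phex at 11.9 ± 3.42, Slc20a2 at 10.03 ± 1.06, Fam20c at 9.13 ± 1.71, Enpp1 at 8.76 ± 1.14 and Smpd3 at 6.65 ± 2.89 CPM per kb (SD, n = 4). The Control ranges over mice overlapped among Bglap, Bglap2 and Alpl, for Alpl and Slc20a1, and among Phex, Slc20a2, Fam20c, Enpp1 and Smpd3. In BMAd-DTA, Alpl at 125 ± 21.9 CPM per kb and Slc20a1 at 36.3 ± 3.94 CPM per kb (SD, n = 7) no longer overlapped. The counts of the osteocalcin pair leave out reads that fit both genes, so their levels per kilobase are too low by an unknown amount.

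Each member was also divided by Col1a1, the collagen chain that makes up most of the bone matrix, in this RNA of whole bone with marrow. Col1a1 measured 1245, 5588, 6226 and 5823 CPM in Control and 7609, 12361 and 18037 CPM at the lowest, median and highest BMAd-DTA library. Its groups did not overlap, and its log2 fold change of 1.35 ± 0.39 (SE) had an adjusted p of 0.115 in edgeR and 0.00991 in DESeq2. The log2 ratios of Alpl, Smpd3, Bglap and Bglap2 to Col1a1 differed between the groups by -0.34 ± 0.42, -0.19 ± 0.18, -0.090 ± 0.23 and -0.18 ± 0.24 (SE), all within the spread among mice, with adjusted p from 0.442 to 0.715 by exact permutation. Slc20a1, Enpp1 and Slc20a2 were lower relative to Col1a1, by -1.72 ± 0.64, -1.52 ± 0.65 and -1.46 ± 0.62 (SE), with adjusted p of 0.0152, 0.0152 and 0.0341 by exact permutation. The ratios of Slc20a1 and Enpp1 did not overlap between the groups. The log2 fold changes of Slc20a1, Enpp1 and Slc20a2 themselves were -0.19, -0.0059 and 0.053. Their lower ratios thus largely restate the higher Col1a1 of BMAd-DTA, the shared denominator, and are not separate results. Fam20c, at -1.15 ± 0.68 (SE), Phex, at -0.78 ± 0.36, and Phospho1, at -0.78 ± 0.61, did not pass, with adjusted p of 0.0636, 0.121 and 0.233 by exact permutation. These ratios lean on Control 1, whose Col1a1 was low. Without it the differences for Slc20a1, Enpp1 and Slc20a2 were -1.11, -0.91 and -0.89, with exact permutation p of 0.0167, 0.025 and 0.0417 and adjusted p of 0.125, 0.125 and 0.156. The groups still did not overlap for Slc20a1 and Enpp1. The differences for Fam20c, Phex and Phospho1 were then -0.51, -0.47 and -0.24, and the sign for Alpl turned, at 0.049. The adjusted p of Slc20a2 over Col1a1 by the exact test was also 0.0625, 0.05 and 0.0536 without Control 2, Control 4 or BMAd-DTA 7. Fam20c over Col1a1 passed at 0.0429 without BMAd-DTA 1 and 0.0286 without BMAd-DTA 5, and Phex over Col1a1 at 0.0357 without BMAd-DTA 5, by the same exact test.

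**Figure D4:**
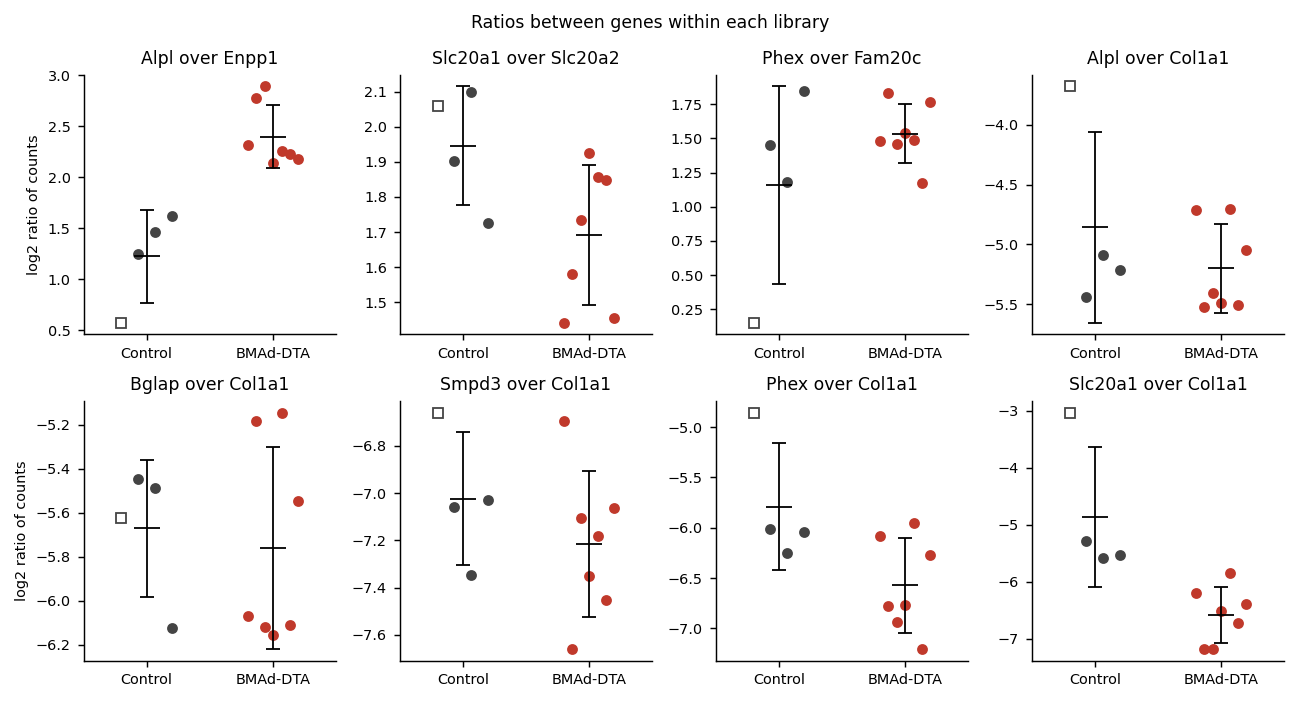
Log2 ratio of the counts of a pair of genes in each library, for 8 of the 15 ratios, with the mean and SD of each group. Axes do not start at 0, and the open square is Control 1. Alpl over Enpp1 and Slc20a1 over Col1a1 are separated between the groups, while Bglap over Col1a1 and Smpd3 over Col1a1 overlap.

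Across mice of the same group, some members varied together. After the group mean was removed from log2 CPM, Bglap and Bglap2 had a Pearson r of 0.99 (Spearman rho 0.98) over the 11 libraries, the highest of Bglap with any of 12972 genes, and r was 0.98 without the 2 libraries farthest from the median. The next for Bglap were Chic1, at r = 0.97 (rho 0.88, and 0.91 without those 2 libraries), and Col11a2, a fibrillar collagen chain, at r = 0.93 (rho 0.89, and 0.91). The genes most like Alpl were Ppic, which encodes cyclophilin C, at r = 0.95 (rho 0.81, and 0.89), Cdh2, which encodes N-cadherin, at r = 0.94 (rho 0.83, and 0.86), and Kifc3, a kinesin, at r = 0.93 (rho 0.85, and 0.84). Those most like Phex were Col11a1 at r = 0.94 (rho 0.90, and 0.92), Chn1 at r = 0.93 (rho 0.82, and 0.77) and Prss35 at r = 0.93 (rho 0.85, and 0.78). Among the members, Phex varied with Bglap at r = 0.83, with Smpd3 at 0.81 and with Alpl at 0.78. Without the 2 libraries farthest from the median of Phex these were 0.79, 0.68 and 0.70. Enpp1 had r of -0.31 with Alpl, -0.58 with Phex and -0.44 with Bglap. Without the 2 libraries farthest from the median of Alpl, Phex or Bglap in turn, these were -0.83, -0.59 and 0.028. Each r rests on the same 11 libraries, and the highest were picked from many genes.

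Other genes of the same pathways were read from 5 lists set by function, and none passed the edgeR threshold in any of them. The lists were also chosen with earlier results of these data known, so shares set beside all genes describe them and test nothing. Among 11 tested genes of pyrophosphate and phosphate handling, 5 had higher and 6 lower mean values in BMAd-DTA, the median log2 fold change was -0.14 and DESeq2 called none. The extremes were Xpr1, the phosphate exporter, at 0.10 ± 0.14 (SE), and Fgf23, the osteocyte hormone that lowers blood phosphate, at -1.42 ± 0.67. Fgf23 was barely expressed, at 1.95 ± 2.01 CPM (SD, n = 4) and 0.726 ± 0.50 CPM (SD, n = 7), and its edgeR adjusted p was 0.315. Among 13 genes of matrix vesicles and phospholipid release, 12 had positive log2 fold changes (11 with RLE scaling or library totals, Smpd2 then being negative), with a median of 0.14. Sgms2, a sphingomyelin synthase that makes the substrate of Smpd3, was the highest at 0.39 ± 0.12 (SE). Its adjusted p was 0.133 in edgeR and 0.0448 in DESeq2. It was the only 1 of the 13 genes that DESeq2 called, where DESeq2 called 5.42% of all genes with an adjusted p. Phospho2, a relative of Phospho1, was the lowest at -0.017 ± 0.088.

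Among 10 tested genes of osteocalcin processing and gamma-carboxylation, 5 had positive and 5 negative log2 fold changes (4 and 6 with library totals), with a median of -0.036. Mgp, the matrix Gla protein that inhibits mineral, was the highest at 0.46 ± 0.15 (SE), with an edgeR adjusted p of 0.152, and Nqo1, a quinone reductase, the lowest at -0.42 ± 0.17, with an edgeR adjusted p of 0.232. DESeq2 called 2 genes of this list, named here after their values were seen, the vitamin K-dependent ligand Gas6, at 0.46, and the vitamin K epoxide reductase Vkorc1l1, at -0.32. The edgeR adjusted p of these was 0.117 and 0.0955. Among 8 tested genes of secreted phosphoproteins and partners of Fam20c and Phex, 6 had positive log2 fold changes, with a median of 0.61. Ibsp, bone sialoprotein, was the highest at 1.0 ± 0.34 (SE), with an edgeR adjusted p of 0.156, and Ahsg, fetuin-A, the lowest at -0.26 ± 0.39. The 3 that DESeq2 called, also named after their values were seen, were Dmp1, Mepe and Pcsk5, at 0.57, 0.77 and 0.64. Beside the calls of this list and the osteocalcin processing list, DESeq2 called 5.42% of all genes with an adjusted p.

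Transcription factors that act on mineralization genes had the highest median. All 12 tested had positive log2 fold changes, also under the 3 other scalings, with a median of 0.71, where 50.4% of all genes were positive. Sp7, or Osterix, without which no osteoblasts form, was the highest, with 41.5 ± 13.3 CPM (SD, n = 4) in Control and 90.2 ± 19.6 CPM (SD, n = 7) in BMAd-DTA, a log2 fold change of 1.12 ± 0.21 (SE). Its adjusted p was 0.0675 in edgeR and 1.82e-05 in DESeq2. The gene also carries the FLPo cassette in every mouse of both groups. Atf4 was the lowest at 0.041 ± 0.070 (SE). DESeq2 called 8 of the 12, all higher, where it called 5.42% of all genes with an adjusted p. Runx2 and Sp7 of this list also belong to the osteoblast marker list above, as do Spp1, Ibsp, Dmp1 and Mepe of the phosphoprotein list. Neither list is therefore independent of the osteoblast markers. Of the transcription factors, edgeR called 3 without Control 3, where it called 292 genes in all, and 1 without Control 4, where it called 89. It also called 1 each without BMAd-DTA 3 or BMAd-DTA 7, where it called 8 and 14 genes in all. Without Control 1 it called none of the genes in any of the 5 lists, and the medians were 0.57 for the transcription factors and 0.064 for the vesicle list.

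**Figure D5:**
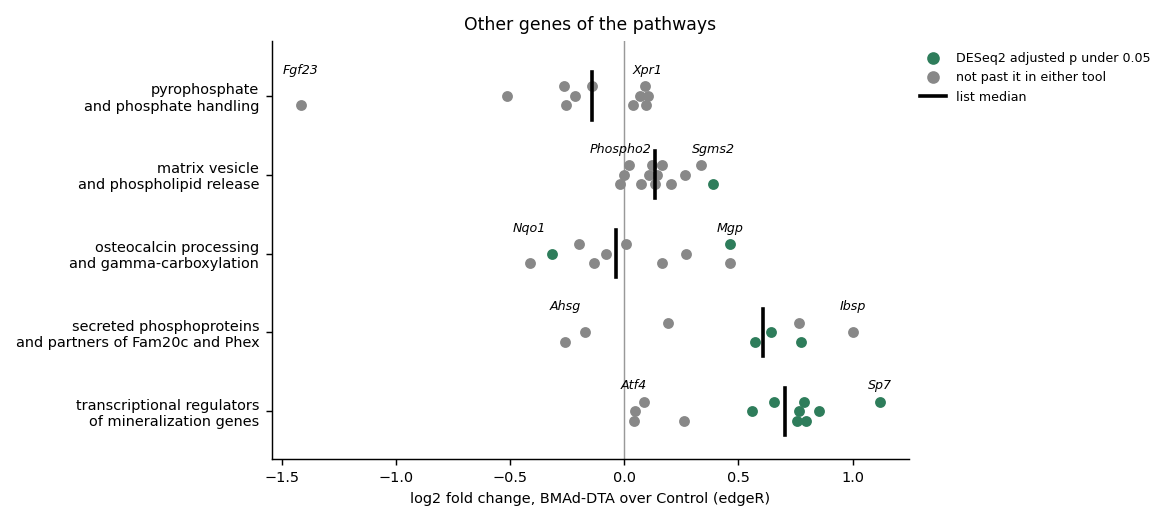
Log2 fold change (edgeR) of each tested gene of the 5 pathway lists, with the list median as a black bar and the highest and lowest gene of each list named. Green marks had an adjusted p under 0.05 in DESeq2, and most of these lie in the lists of transcription factors and phosphoproteins.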

How the data were processed

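Distal tibiae were powdered whole and RNA was sequenced as stranded paired reads of 100 bases, with 1 library per mouse, 4 Control and 7 BMAd-DTA. The authors checked reads with FastQC 0.11.9, aligned them to mm10 with STAR and deposited counts of read pairs per gene, unnormalized, per library and in a merged table whose values equal the read-strand counts. Their own test of genotype used DESeq2, which is an alternative here. Versions of STAR and of their DESeq2, and the annotation release, are not given in the sources used here. Multimapping pairs (6.68% to 9.07% of pairs) and ambiguous pairs (1.49% to 1.70%) lie outside the counts and were left out of library sizes.

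Groups came from the labels. The members and lists were chosen with earlier results of these data known. Counts were tested with edgeR 4.0.16 in R 4.3.3 (filterByExpr, TMM, quasi-likelihood test, two-sided, adjusted p under 0.05 over 16496 genes). CPM are counts over the TMM-scaled library size. The SE of a log2 fold change is its size over the square root of the F statistic. Log2 ratios, with 0.5 counts added to each gene, were tested by exact permutation, two-sided, with adjustment over 15 ratios. Named list genes were those past the threshold in edgeR and the highest and lowest log2 fold change of each list, and likeness was the Pearson r of within-group deviations among genes averaging 50 counts or more. Alternatives used DESeq2 1.42.0, limma 3.58.1, other scalings, filters and count tables, a skeletal muscle score and leaving out each mouse. The fits were also run on simulated counts with known changes, drawn separately for each gene. No mouse was left out there, so the simulation cannot show how calls depend on single mice. Separate animals are replicates by their labels, with no cohort or litter given. Positions, lengths and coding sequences came from GENCODE M21 on GRCm38, to which 99.89% of identifiers matched, and promoters from RefSeq.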

Additional observations from a re-analysis of the deposited data

Results flagged for a closer look

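A library that stood far from its group was looked for in 50 sets of values, the CPM of each member and each log2 ratio in the 4 Control and in the 7 BMAd-DTA libraries, and 6 sets held one. Chance alone gives about 1 in 20 such sets, and the sets are not independent, since the ratios share Col1a1. In Control 1, Phex was at 43.0 CPM, against 81.6 CPM in the next lowest control. In the same library the log2 ratios to Col1a1 were the highest of their group at -4.25 for Enpp1, -3.03 for Slc20a1, -4.86 for Phex and -5.01 for Fam20c, where the next highest controls were at -6.55, -5.29, -6.01 and -7.43. Col1a1 itself was at 1245 CPM in that library, against at least 5588 CPM in the other controls. In BMAd-DTA 3, Smpd3 was at 131 CPM, against 80.1 CPM in the next highest library of its group.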

How the results depend on the processing

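The number of genes called was 13 as reported, 845 with DESeq2, 20 with limma-voom, 20 with RLE scaling, 3 with the muscle score and 0 to 292 when a mouse was left out. It was 0 without Control 1, Control 2, BMAd-DTA 1 or BMAd-DTA 6, where 1784, 2239, 2626 and 2528 genes had an unadjusted p under 0.05 in edgeR, 3 without BMAd-DTA 4, 8 without BMAd-DTA 3, 89 without Control 4 and 292 without Control 3. The number of members called was 1 as reported, 4 with DESeq2, 3 at an adjusted p under 0.1, 0 with the muscle score, 0 with that score and without Control 1 (an alternative chosen after seeing the data) and 0 to 1 when a mouse was left out. The fold change of Enpp1 changed sign with limma-voom (0.0017), upper quartile scaling (0.0066), the muscle score (0.038) and that score without Control 1 (0.076), and over left-out mice, at -0.071 to 0.058. That of Slc20a2 was -0.016 to 0.087 over left-out mice. The fold changes of the other 8 members kept their sign under every alternative. Over left-out mice, the difference in log2 ratio was 0.96 to 1.31 for Alpl over Enpp1, -0.019 to 0.15 for Bglap over Bglap2, -0.54 to 0.049 for Alpl over Col1a1, -1.77 to -0.91 for Enpp1 over Col1a1, -1.96 to -1.11 for Slc20a1 over Col1a1, -1.76 to -0.89 for Slc20a2 over Col1a1, -0.93 to -0.47 for Phex over Col1a1, -1.47 to -0.51 for Fam20c over Col1a1 and -1.11 to -0.24 for Phospho1 over Col1a1. Counts without strand gave -1.15 for Fam20c over Col1a1, past the threshold at an adjusted p of 0.0455 by exact permutation. DESeq2 called 5.42% of all genes with an adjusted p. It called 1 gene of the vesicle list, 2 of the osteocalcin processing list, 3 of the phosphoprotein list and 8 of the transcription factor list, where edgeR called 0. Over left-out mice these counts were 0 in the vesicle list, 0 to 1, 0 to 2 and 0 to 3. The list medians over left-out mice were -0.17 to 0.023 for pyrophosphate and phosphate handling and 0.064 to 0.18 for the vesicle list. The cause of these changes was not tested. No paired analysis was possible because the labels number no mice across the groups. Counting depth limits Phospho1, at 9 to 23 counts per library.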
